A study of Mus musculus with 15 samples.

Results

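The core and naive pluripotency factors studied here are 10 transcription factor genes, *Pou5f1*, *Sox2*, *Nanog*, *Sall4*, *Klf2*, *Klf4*, *Esrrb*, *Zfp42*, *Tfcp2l1* and *Tbx3*, chosen by name. Each gene matched 1 of the 21727 counted transcripts through the GENCODE M21 annotation, and all 10 were among the 10085 transcripts that passed the filter on low counts. The cells were feeder-free mouse embryonic stem cells (mESCs) of the E14Tg2a.4 line, grown in serum with leukemia inhibitory factor (LIF). The *Rps27-FLAG* and *Rps27l-FLAG* lines, written eS27-FLAG and eS27L-FLAG in the sample labels, carried a 3xFLAG tag at the C terminus of one of a pair of paralogous small-subunit ribosomal proteins, inserted homozygously at the endogenous gene by CRISPR. Each line was sampled as 3 clones grown from single cells, with 3 passage-matched wild-type (WT) clones as the untagged control. Ribosome-protected fragments (RPFs), the mRNA stretches that ribosomes shield from nuclease, were sequenced from the whole ribosome pool (total RPF, 9 libraries) and, in the tagged lines, from ribosomes pulled down with anti-FLAG beads (IP RPF, 6 libraries), all after cycloheximide, which arrests elongating ribosomes. This gives 15 libraries in 5 conditions of 3. No IP from untagged cells was analysed here, so binding to the beads without a tag was not measured.

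In mESCs these factors form an interlocking network. *Pou5f1* (Oct4), *Sox2* and *Nanog*, with the zinc finger protein *Sall4*, bind many shared enhancers, including their own, and keep the genes of the undifferentiated state active. *Klf2*, *Klf4*, *Esrrb*, *Tfcp2l1* and *Tbx3* belong to the naive layer, which stands for the ground state of the early epiblast and is fed by LIF through *Stat3* (*Klf4* and *Tfcp2l1*) and by other signals of the medium, and *Zfp42* (Rex1) is a widely used marker of this state. In serum with LIF, *Nanog*, *Klf4*, *Esrrb*, *Zfp42* and *Tbx3* are known to vary from cell to cell.

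Library totals lay between 3972152 and 8064166 counts. The replicate number of a library is its sequencing batch, and each number holds 1 clone of every line. A batch and the set of clones in it therefore cannot be told apart. Among total RPF libraries, replicate 2 of *Rps27l-FLAG* differed less from replicate 1 of its line than from replicate 3 (chi-squared per degree of freedom 4.18 and 7.38). In *Rps27-FLAG* and WT, replicates 2 and 3 were the closest pair (2.21 and 2.54). What sets this *Rps27l-FLAG* clone apart was not tested. The clones also differed in *Tet1*, a DNA demethylase gene outside the 10 factors that was chosen after its values were seen. Its total RPFs were at 2.43, 1.95 and 3.08 normalized CPM (read counts scaled to the library size) in replicate 1 of *Rps27-FLAG*, *Rps27l-FLAG* and WT and at 2.10 in replicate 2 of *Rps27l-FLAG*, against 417 to 431 in the other 5 clones. What these values have to do with the factors was not tested.

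Some sequences of these genes are shown first, from promoters and from coding stretches shared with other transcripts. The octamer core ATGCAAA, part of the sequence that Oct4 binds, was searched on both strands in RefSeq promoter windows of the GRCm38.p6 assembly, which run from 250 bases before to 50 bases after a gene's start. It occurred in 4 of the 11 windows found for 8 of the factors, in *Nanog* (both windows), *Sox2* and *Zfp42*. The *Nanog* windows overlap and hold the same site, so the 4 windows are not separate sites. Of all 32851 windows, 1520 held the octamer core (4.63%), and the share among the factors was not tested against this. The element TCAAGGTCA, which *Esrrb* binds, occurred in 0 of the 11 and in 139 of all windows (0.423%). A match describes these letters and is not a measured binding site. The windows below lie at chr3:34649876-34649922 on the + strand, chr6:122707394-122707440 on the + strand and chr8:43307168-43307214 on the - strand, with the octamer in capitals (as TTTGCAT where it lies on the opposite strand).
Sox2: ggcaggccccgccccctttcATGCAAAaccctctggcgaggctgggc
Nanog: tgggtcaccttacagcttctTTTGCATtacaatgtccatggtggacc
Zfp42: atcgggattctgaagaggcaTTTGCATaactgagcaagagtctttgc

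RPFs are short, and only unique alignments were counted, so a stretch that another counted transcript shares is lost to a gene's count. Of the 28-base windows of each coding sequence (CDS), 113 of 1029 in *Pou5f1* recurred in the transcript of the predicted gene *Gm5712* and 27 of 930 in *Sox2* recurred in other Sox transcripts, while the remaining 8 factors had 0 such windows. The stretches below are shared in full, in capitals, with 10 flanking bases in lower case, because a read within them aligns to more than one transcript. The longest of *Pou5f1* covers CDS bases 807 to 867, and those of *Sox2* cover bases 126 to 155, 193 to 236 and 260 to 293.
Pou5f1 (807): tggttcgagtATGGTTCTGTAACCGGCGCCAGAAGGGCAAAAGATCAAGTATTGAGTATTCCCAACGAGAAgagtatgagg
Sox2 (126): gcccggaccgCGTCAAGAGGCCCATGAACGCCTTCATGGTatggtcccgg
Sox2 (193): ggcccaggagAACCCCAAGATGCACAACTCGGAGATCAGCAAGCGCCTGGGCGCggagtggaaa
Sox2 (260): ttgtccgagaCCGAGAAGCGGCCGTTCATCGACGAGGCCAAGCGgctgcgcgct

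All 10 factors lay above the level of the median transcript in every clone. Levels of different genes are compared as normalized CPM per kilobase of counted CDS, as mean ± SD over the 9 total RPF libraries, with the 3 lines together. The median transcript had a mean of 25.6 on this scale. *Zfp42* led with 1166 ± 55.8, followed by *Nanog* with 752 ± 35.7, *Pou5f1* with 445 ± 17.5, *Esrrb* with 421 ± 21.4, *Sox2* with 342 ± 16.8 and *Klf2* with 270 ± 27.8. *Tfcp2l1* had 171 ± 19.5, *Sall4* 161 ± 9.61, *Klf4* 114 ± 34.1 and *Tbx3* 110 ± 38.6. Among 10082 transcripts with a CDS length, these levels ranked from 82 for *Zfp42* to 1743 for *Tbx3*. The ranges over the clones overlapped between *Pou5f1* and *Esrrb*, where 8 of 9 clones had more *Pou5f1*, between *Tfcp2l1* and *Sall4* (7 of 9 clones in this order), between *Sall4* and *Klf4* (8 of 9) and between *Klf4* and *Tbx3* (6 of 9). The other neighbours in the order did not overlap.

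**Figure D1:**
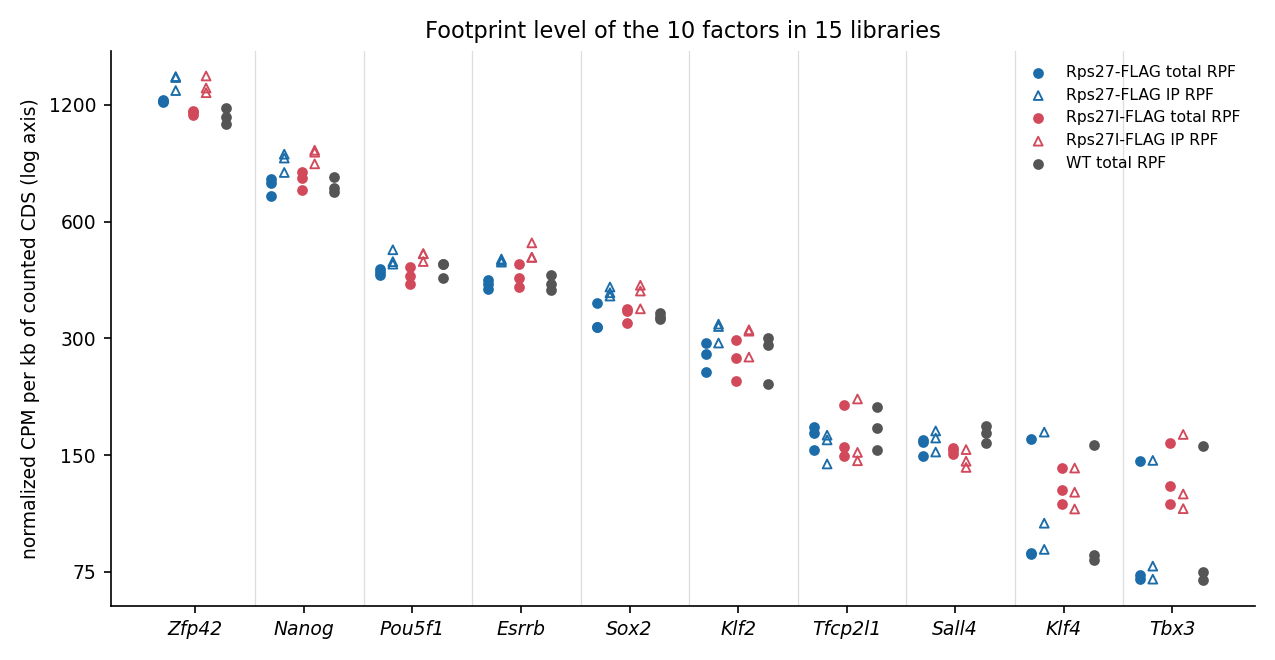
Footprint level of each factor in the 15 libraries, as normalized CPM per kilobase of counted CDS on a log axis, with filled circles for total RPF and open triangles for IP RPF libraries of the lines given by colour. The circles of *Zfp42*, *Nanog*, *Pou5f1*, *Esrrb*, *Sox2* and *Sall4* cluster tightly, while those of *Klf4* and *Tbx3* spread over 2.05-fold and 2.26-fold.

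Most of the factors were steady between clones, and *Klf4* and *Tbx3* were not. The SD of log2 normalized CPM over the 9 clones was between 0.0571 and 0.0851 for *Pou5f1*, *Nanog*, *Zfp42*, *Sox2*, *Esrrb* and *Sall4*, against a median of 0.164 over all transcripts, whose median level was lower. *Klf2* (0.152) and *Tfcp2l1* (0.160) lay close to that median. *Klf4* (0.426) and *Tbx3* (0.516) lay far above it, and the highest clone had 2.05 and 2.26 times the level of the lowest, against 1.13 to 1.35 times for the other 8 factors. In these 9 libraries *Klf4* had 706 to 1796 counts and *Tbx3* 942 to 2605. The pattern across clones is taken up after the comparison of the lines.

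*Pou5f1* (chr17:35506018-35510772, + strand, 5 exons) encodes the POU-domain factor that mESCs cannot do without. Its total RPFs were at 435, 443 and 450 normalized CPM in *Rps27-FLAG* (replicates 1, 2 and 3), at 434, 413 and 457 in *Rps27l-FLAG* and at 463, 428 and 465 in WT. The 3 lines overlapped. *Sox2* (chr3:34650405-34652461, + strand, 1 exon), its HMG-box partner, had 332, 288 and 288 in *Rps27-FLAG*, 316, 320 and 295 in *Rps27l-FLAG* and 313, 306 and 302 in WT. Its lines overlapped too, and replicate 1 of *Rps27-FLAG* was the highest clone. *Nanog* (chr6:122707568-122714633, + strand, 4 exons), the homeodomain factor that holds cells in self-renewal, had 598, 644 and 660 in *Rps27-FLAG*, 667, 619 and 689 in *Rps27l-FLAG* and 628, 611 and 669 in WT, again overlapping.

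*Sall4* (chr2:168748332-168767201, - strand, 4 exons) had 467, 511 and 514 normalized CPM in *Rps27-FLAG*, 485, 474 and 491 in *Rps27l-FLAG* and 506, 538 and 561 in WT. The WT clones lay above all *Rps27l-FLAG* clones and overlapped with those of *Rps27-FLAG*. *Zfp42* (chr8:43295067-43306980, - strand, 4 exons) had 987, 982 and 993 in *Rps27-FLAG*, 930, 908 and 928 in *Rps27l-FLAG* and 949, 860 and 901 in WT. The *Rps27-FLAG* clones lay above all others. *Esrrb* (chr12:86421644-86521625, + strand, 7 exons), an orphan nuclear receptor, had 551, 524 and 538 in *Rps27-FLAG*, 559, 530 and 609 in *Rps27l-FLAG* and 538, 519 and 570 in WT, with the lines overlapping.

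*Klf2* (chr8:72319033-72321656, + strand, 3 exons), a Krüppel-like zinc finger factor, had 246, 275 and 293 normalized CPM in *Rps27-FLAG*, 234, 267 and 297 in *Rps27l-FLAG* and 230, 289 and 302 in WT. *Tfcp2l1* (chr1:118627946-118685168, + strand, 15 exons), a factor of the grainyhead family, had 213, 235 and 244 in *Rps27-FLAG*, 217, 206 and 279 in *Rps27l-FLAG* and 213, 243 and 274 in WT. In both genes the lines overlapped. The lowest *Klf2* value of each line was in replicate 1 and the highest *Tfcp2l1* value in replicate 3. For *Tfcp2l1*, replicate 2 of *Rps27l-FLAG* (206) was the lowest of the 9 clones.

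*Klf4* (chr4:55527143-55532466, - strand, 5 exons), the Krüppel-like factor best known from reprogramming, had 229, 116 and 116 normalized CPM in *Rps27-FLAG*, 193, 169 and 156 in *Rps27l-FLAG* and 221, 112 and 115 in WT. *Tbx3* (chr5:119670669-119684561, + strand, 7 exons), a T-box factor, had 304, 151 and 155 in *Rps27-FLAG*, 339, 263 and 236 in *Rps27l-FLAG* and 333, 158 and 150 in WT. Replicate 1 was the highest clone of every line in both genes. The clones of replicates 2 and 3 lay lower, those of *Rps27l-FLAG* above the other lines in both genes. In libraries made from whole cultures, fewer cells with a factor and fewer footprints per cell cannot be told apart, nor can less mRNA and fewer ribosomes on each mRNA, since no RNA abundance was analysed here.

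Total RPFs were set against each other line by line, to ask whether a tagged line translates these mRNAs differently from WT. With edgeR's quasi-likelihood test over all 10085 transcripts and Benjamini-Hochberg adjustment, 0 of the 10 factors passed an adjusted p of 0.05 in any of the 3 comparisons, as did 0 transcripts in all (0%), and DESeq2 and voom with limma also gave 0. Before adjustment, 294 transcripts had p under 0.05 for *Rps27-FLAG* against WT, 574 for *Rps27l-FLAG* against WT and 580 for the tagged lines against each other, and 1, 1 and 0 of the factors were among these. *Zfp42* was 0.13 higher in *Rps27-FLAG* than in WT on the log2 scale (95% confidence interval 0.0228 to 0.234, adjusted p = 0.999). For *Sall4* the difference between *Rps27l-FLAG* and WT was -0.15 (-0.275 to -0.0178, adjusted p = 0.821). The median log2 fold change of the 10 factors was -0.017, 0.023 and 0.027 in the 3 comparisons, against -0.0011, 0.0026 and 0.0032 over all transcripts.

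The intervals show what these 3 clones a line can resolve. They were widest for *Tbx3*, with a log2 difference of 0.46 between the tagged lines (-0.289 to 1.20, adjusted p = 0.811) and of 0.39 between *Rps27l-FLAG* and WT (-0.358 to 1.13, adjusted p = 0.844). With the replicate number as a block, which compares clones of one batch, 1, 144 and 137 transcripts passed (0.00992%, 1.43% and 1.36%). By direction, 0.367% were higher and 1.06% lower in *Rps27l-FLAG* than in WT, and 0.645% higher and 0.714% lower than in *Rps27-FLAG*. Among the factors this block gave 0, 0 and 1. The one was *Tbx3* between the tagged lines, 0.53 higher in *Rps27l-FLAG* (SE 0.109, 0.292 to 0.760, adjusted p = 0.0386). Against WT, *Tbx3* had 0.47 (SE 0.108, adjusted p = 0.0504), and *Klf4* had 0.28 against WT and 0.24 against *Rps27-FLAG* (adjusted p = 0.317 and 0.383).

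Single clones decided the call for *Tbx3*. Between the tagged lines the blocked log2 difference ranged from 0.38 to 0.73 with 1 library left out at a time, and the adjusted p from 0.000330 to 0.270. The call held only without replicate 1 of *Rps27l-FLAG*, replicate 1 of WT or replicate 3 of WT and was lost without any of the other 6. Against WT the difference ranged from 0.32 to 0.68 (adjusted p 0.000557 to 0.343), and it passed without replicate 1 of *Rps27l-FLAG* or of WT. Without replicate 1 of *Rps27l-FLAG*, *Klf4* passed as well, with 0.52 against WT (adjusted p = 0.00191) and 0.48 against *Rps27-FLAG* (adjusted p = 0.00356).

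**Figure D2:**
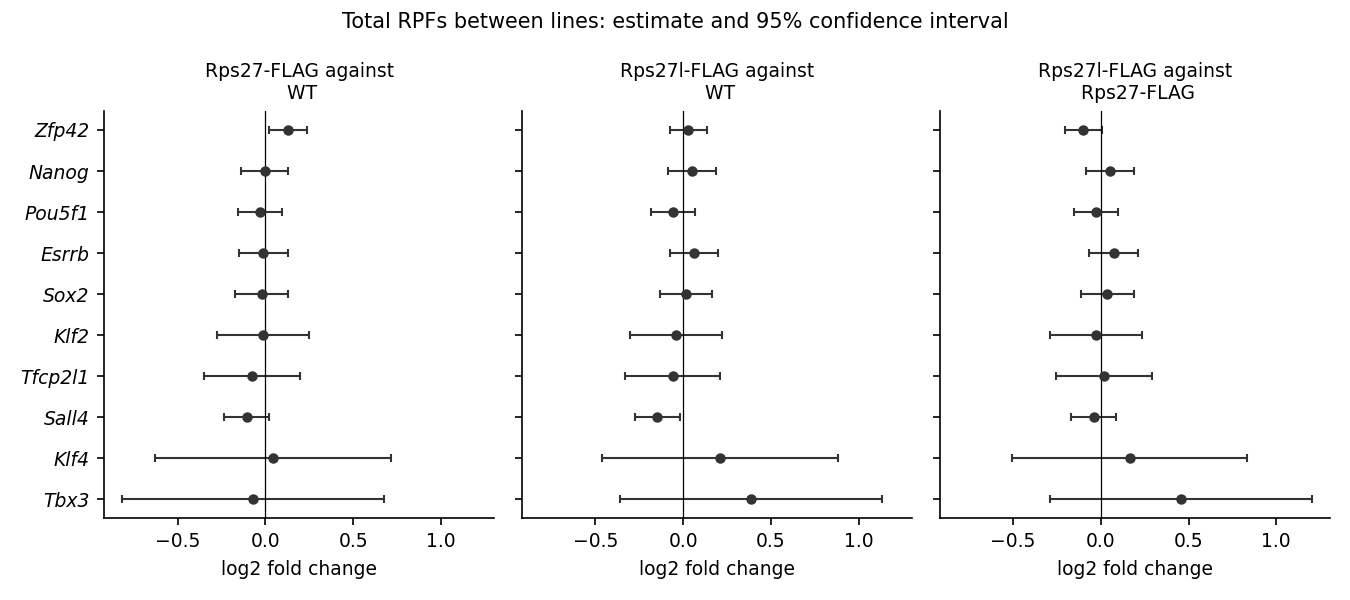
Log2 fold change of each factor between the total RPFs of the lines (points) with the 95% confidence interval (bars), from the fit without a block. Most intervals span 0, those of *Zfp42* in the left and *Sall4* in the middle panel do not, and those of *Klf4* and *Tbx3* are the widest.

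Several naive factors differed between the replicate numbers, *Tbx3*, *Klf4* and *Klf2* in the same direction in all 3 lines. In a fit added after the values were seen, with the replicate number beside the cell line, 1239 of 10085 transcripts passed (12.3%), and so did 4 of the 10 factors. The log2 differences of replicates 2 and 3 from replicate 1 were -0.82 and -0.89 for *Tbx3* (SE 0.108 and 0.109, adjusted p = 0.000291). They were -0.72 and -0.76 for *Klf4* (SE 0.123 and 0.124, adjusted p = 0.00171). *Klf2* moved the other way, 0.23 and 0.33 higher in replicates 2 and 3 (SE 0.0557 and 0.0559, adjusted p = 0.00523). *Tfcp2l1* was 0.09 and 0.31 higher (SE 0.0698 and 0.0699, adjusted p = 0.0229). In *Rps27l-FLAG*, however, its replicate 2 (206 normalized CPM) lay below replicate 1 (217).

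The core factors and the remaining naive factors did not pass, with adjusted p of 0.219 for *Esrrb*, 0.276 for *Nanog*, 0.326 for *Sox2*, 0.366 for *Sall4*, 0.404 for *Pou5f1* and 0.605 for *Zfp42*. *Tbx3* and *Klf4* passed whichever library was left out (adjusted p up to 0.0119 and 0.0433). *Klf2* was lost without replicate 1 of WT (adjusted p = 0.0755). *Tfcp2l1* was lost without replicate 1 of *Rps27-FLAG* (0.0896), replicate 1 of WT (0.123), replicate 3 of *Rps27l-FLAG* (0.149) or replicate 3 of WT (0.0947). Without the 3 *Rps27l-FLAG* libraries, 4 factors and 2112 transcripts passed. As a plain count, replicate 1 was the highest clone in all 3 lines for 1399 transcripts (13.9%), *Klf4* and *Tbx3* among them, and the lowest in all 3 lines for 1384 (13.7%), *Klf2* among them.

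**Figure D3:**
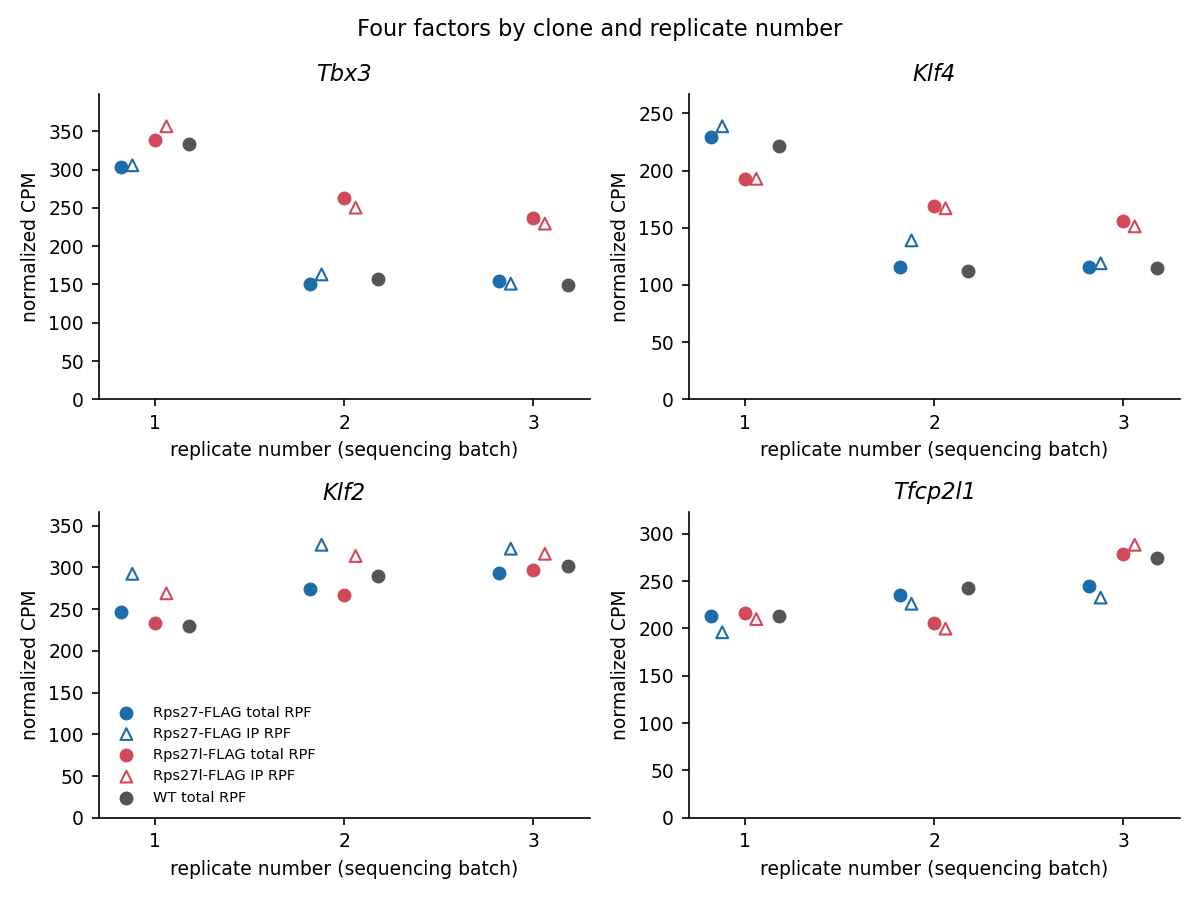
Normalized CPM of *Tbx3*, *Klf4*, *Klf2* and *Tfcp2l1* by replicate number, with filled circles for total RPF and open triangles for IP RPF libraries of each line by colour. Replicate 1 is the highest number for *Tbx3* and *Klf4* in every line and the lowest for *Klf2*, and the *Rps27l-FLAG* clones of replicates 2 and 3 lie between the extremes for *Tbx3* and *Klf4*.

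Other pluripotency genes divided in the same 2 directions. Of 39 further regulators and markers of the state, 18 passed for the replicate number, against 12.3% of all transcripts, 12 of them higher and 6 lower in replicates 2 and 3 than in replicate 1. The genes named here were chosen after their values were seen. Among the 6 were *Myc* (log2 differences of -0.64 and -0.80, adjusted p = 0.000219) and *Klf5* (-0.38 and -0.40). Among the 12 were *Mycn* (0.78 and 0.68, adjusted p = 7.5e-05), the early germline and naive marker *Dppa3* (1.65 and 0.98) and the growth factor gene *Gdf3* (0.41 and 0.53). *Dppa3* was low, at 2.73 to 14.9 normalized CPM over the total RPF libraries, with SEs of 0.334 and 0.358 (adjusted p = 0.0160). *Myc* and *Mycn*, close relatives that both support growth of mESCs, thus moved in opposite directions.

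**Figure D4:**
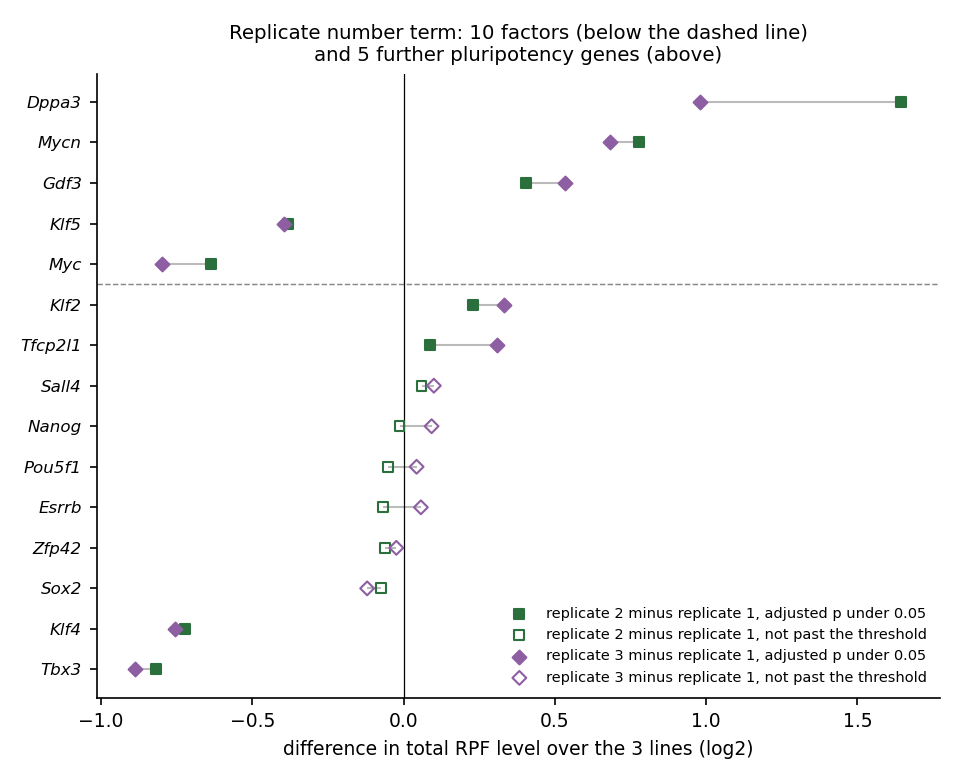
Log2 difference in total RPF level of replicates 2 (squares) and 3 (diamonds) from replicate 1, over the 3 lines, for the 10 factors below the dashed line and for the 5 further pluripotency genes named in the text above it, with open symbols for factors that did not pass. *Tbx3* and *Klf4* lie at the left end of the factors and *Klf2* and *Tfcp2l1* at the right end.

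The lists of signals that feed the network and of later states are set against the same background of 12.3%. Of 10 genes of LIF and *Stat3* signalling 2 passed, of which *Pim3* was lower (-0.43 and -0.51) and the LIF coreceptor gene *Il6st* was higher (0.24 and 0.30) in replicates 2 and 3, while the receptor gene *Lifr* (226 to 249 normalized CPM over the 9 clones) and *Stat3* (173 to 205) did not pass. Of 9 genes of Wnt and Gsk3 signalling, with *Ctnnb1* (beta-catenin) at 1266 to 1393, the lowest adjusted p was 0.0576, for the repressor gene *Tcf7l1* (0.37 and 0.29). Of 9 measured genes of the formative and primed states, 5 passed, *Tcf15* and *Sall2* lower and *Fgf15* higher in replicates 2 and 3, and *Otx2* and *Sox3* with opposite signs in the 2 numbers. The summed level of the 10 factors stayed between 4064 and 4437 normalized CPM in the 9 clones.

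Most markers of other cell types were low, and *Lama1* and *Tubb3* were not. *Tubb3*, of the neural list, was at 100 to 125 normalized CPM in the 9 clones. Summed over the list, normalized CPM in the 9 clones were 11.5 to 32.3 for trophoblast (1 of 8 genes passing the filter), 6.11 to 10.8 for mesoderm (1 of 7), 14.3 to 36.7 for fibroblasts (1 of 8), 141 to 170 for neural cells (2 of 6) and 207 to 314 for primitive endoderm (2 of 9). Most of the last sum was *Lama1*, a basement membrane gene (178 to 288), while the defining factors *Gata4* and *Gata6* were at 0.853 to 5.08 and 0.797 to 5.60. *Tpbpa*, a trophoblast marker, was at 0 in the 9 clones, and *Fgf5*, a marker of primed cells, averaged 0.463. Among the genes that passed for the replicate number were *Dab2* of the endoderm list, lower in replicates 2 and 3 (-1.02 and -1.04), and *Lama1*, higher (0.19 and 0.48). The others were *Eomes* of the trophoblast list (-1.11 and -1.62), *Thy1* of the fibroblast list (-0.80 and -1.31) and neural *Tubb3* (-0.12 and -0.25). These were lower in replicates 2 and 3, as *Tbx3* and *Klf4* were. *Pax6*, *Neurod1* and *Sox1* of the neural list, below the filter and not tested, had higher means in replicates 2 and 3. In replicates 1, 2 and 3 *Pax6* averaged 1.41, 12.5 and 15.4 normalized CPM. *Neurod1* averaged 1.01, 3.12 and 5.16, and *Sox1* 1.66, 1.89 and 2.45. The part of all these marker genes in the pattern of *Tbx3* and *Klf4* was not tested.

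IP RPFs were compared with total RPFs of the same line to ask whether ribosomes with the tagged protein carry more or fewer footprints of these mRNAs. In *Rps27-FLAG* 0 of the 10 factors passed by edgeR and by voom with limma, against 5.67% of all transcripts (0.327% higher and 5.34% lower in the IP), and 5 factors had an unadjusted p under 0.05, as did 2230 of the 10085 transcripts. In *Rps27l-FLAG* 1 of 10 passed, against 3.1% of all (0.833% higher and 2.27% lower), and 5 factors and 1752 transcripts had an unadjusted p under 0.05. This was *Zfp42*, 0.23 higher on the log2 scale in the IP (SE 0.0490, adjusted p = 0.0447), and the call was lost without replicate 1 (adjusted p = 0.260) or replicate 2 (0.488) of that line. DESeq2 gave 2 factors in each line, against 5.79% and 4.56% of all transcripts, *Sox2* and *Esrrb* in *Rps27-FLAG* and *Nanog* and *Zfp42* in *Rps27l-FLAG*. The median log2 fold change of the factors was 0.14 and 0.17 in the 2 lines, against -0.010 and -0.031 over all transcripts.

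Both fractions of a clone were taken from the same lysate, and within a clone the IP lay steadily above the total for 6 of the factors. For *Zfp42* the IP libraries of *Rps27-FLAG* had 1051, 1142 and 1135 normalized CPM and those of *Rps27l-FLAG* 1067, 1146 and 1038. All 6 lay above all 9 total RPF libraries. *Nanog* had 687, 748 and 766 and then 784, 723 and 775, above the total libraries of the same line in each case. *Esrrb* had 620, 614 and 626 and then 632, 632 and 689, also above them. The IP libraries of *Sox2* (365, 353 and 346, then 356, 369 and 321) and *Pou5f1* (464, 506 and 471, then 494, 472 and 494) lay above the total libraries of their line as well, and those of the remaining 5 factors overlapped with them.

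As log2 ratios of IP over total within a clone, mean ± SD over 3 clones, *Nanog* had 0.21 ± 0.00915 in *Rps27-FLAG* and 0.21 ± 0.0347 in *Rps27l-FLAG*. *Esrrb* had 0.21 ± 0.0317 and 0.20 ± 0.0443, *Sox2* 0.23 ± 0.0843 and 0.17 ± 0.0443, and *Klf2* 0.21 ± 0.0643 and 0.18 ± 0.0748. *Zfp42* had 0.17 ± 0.0674 and 0.23 ± 0.0923, and *Pou5f1* 0.12 ± 0.0647 and 0.16 ± 0.0464. These 6 were above 0 in all 6 clones, and the share of all transcripts above 0 in all 6 was not computed. Line by line, *Klf4* and *Sall4* were also above 0 in the 3 *Rps27-FLAG* clones. *Tfcp2l1* was below 0 in these 3 clones, and *Sall4* was below 0 in the 3 of *Rps27l-FLAG*. Of all transcripts, 28.7% and 23.3% were above 0 in the 3 clones of *Rps27-FLAG* and of *Rps27l-FLAG*, and 33.1% and 32.1% below. *Klf4* had 0.12 ± 0.126 and -0.020 ± 0.0214, *Tbx3* 0.028 ± 0.0764 and -0.013 ± 0.0758, *Sall4* 0.050 ± 0.0364 and -0.074 ± 0.0545, and *Tfcp2l1* -0.082 ± 0.0318 and -0.014 ± 0.0548.

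With the clone as a block, 8 factors passed in *Rps27-FLAG* (adjusted p under 0.05, edgeR), against 41.2% of all transcripts, and 7 in *Rps27l-FLAG*, against 31%. In *Rps27-FLAG* 7 of these were higher in the IP, namely *Sox2* (0.23), *Klf2* (0.22), *Nanog* (0.21), *Esrrb* (0.20), *Zfp42* (0.17), *Pou5f1* (0.12) and *Klf4* (0.11), and *Tfcp2l1* was lower (-0.08). In *Rps27l-FLAG* 6 were higher, namely *Zfp42* (0.23), *Nanog* (0.21), *Esrrb* (0.20), *Klf2* (0.18), *Pou5f1* (0.17) and *Sox2* (0.17), and *Sall4* was lower (-0.08, adjusted p = 0.0410). The background in the *Rps27-FLAG* IP was 18.3% of transcripts higher and 22.9% lower, and in the *Rps27l-FLAG* IP 12% and 19%. With 1 clone left out at a time, 5 to 7 factors passed in *Rps27-FLAG*, the fewest without replicate 2, and 6 or 7 in *Rps27l-FLAG*. Of all transcripts, 32.8% to 33.6% passed in these fits of *Rps27-FLAG* and 23.7% to 24.9% in those of *Rps27l-FLAG*. *Sox2*, *Nanog*, *Klf2*, *Esrrb* and *Zfp42* passed in all of these fits in both lines. In *Rps27-FLAG*, *Tfcp2l1* was lost whichever clone was left out (adjusted p of 0.241, 0.0546 and 0.103 without replicate 1, 2 and 3), and *Klf4* and *Pou5f1* were lost without replicate 2. In *Rps27l-FLAG*, *Sall4* was lost without replicate 1 (0.231) or replicate 2 (0.192).

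The 6 factors above 0 in all clones were those with the shortest coding sequences. The CDS of the 6 measured 864 nucleotides (*Zfp42*), 915 (*Nanog*), 957 (*Sox2*), 1056 (*Pou5f1*), 1062 (*Klf2*) and 1362 (*Esrrb*), and those of the other 4 measured 1437 (*Tfcp2l1*), 1449 (*Klf4*), 2163 (*Tbx3*) and 3201 (*Sall4*). Over all transcripts the IP effect fell with length too. The median log2 fold change was 0.14 in *Rps27-FLAG* and 0.09 in *Rps27l-FLAG* for 3018 transcripts under 1000 nucleotides, -0.01 and -0.04 for 3845 of 1000 to 2000, -0.14 and -0.13 for 2411 of 2000 to 4000, and -0.34 and -0.29 for 808 longer ones. With the clone block and this length trend removed, 9 factors were higher in the IP of *Rps27-FLAG*, all but *Tfcp2l1*, while 31.4% of all transcripts passed, 18.4% higher and 13% lower. In *Rps27l-FLAG* 8 were higher, all but *Klf4* and *Tfcp2l1*, while 22.7% of all passed, 14.7% higher and 8.04% lower. *Sall4* then had 0.26 and 0.10 and *Tbx3* 0.14 and 0.10 in the 2 lines. *Sall4* in *Rps27l-FLAG* thus passed as lower with the clone block alone and as higher (adjusted p = 0.00882) once the trend was removed.

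**Figure D5:**
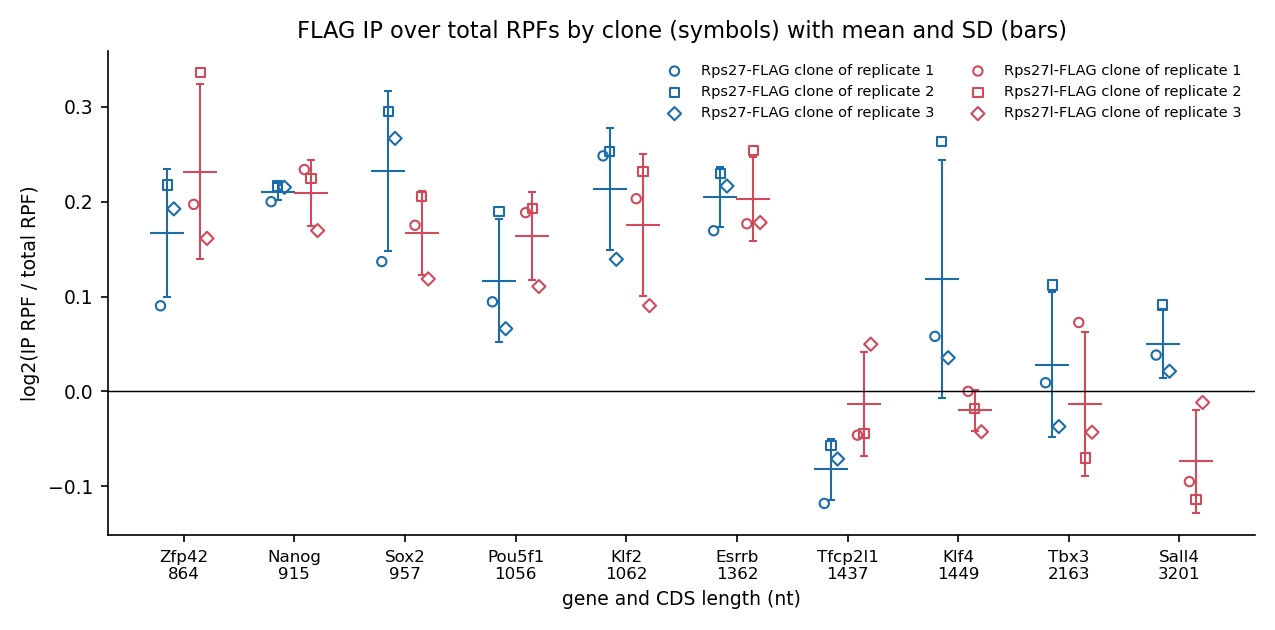
Log2 ratio of IP over total RPF level of each factor in the 6 tagged clones (symbols by replicate number, colours by line) with mean and SD over 3 clones (bars), ordered by CDS length in nucleotides from 864 to 3201. The 6 shortest factors lie above 0 in every clone and the 4 longest lie on both sides of 0.

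The IP effects of the tagged lines were then set against each other, to ask whether Rps27 and Rps27l ribosomes differ for these mRNAs. In the fit of 12 libraries with the clone as a block, 0 of 10 factors passed an adjusted p of 0.05 with an absolute log2 difference over 0.25, against 57 of 10085 transcripts (0.565%), and 2 factors and 1217 transcripts had an unadjusted p under 0.05. By DESeq2 and by voom with limma 0 factors passed as well. The difference of *Rps27l-FLAG* from *Rps27-FLAG* in the IP effect of *Sall4* was -0.13 on the log2 scale (95% confidence interval -0.208 to -0.0456, adjusted p = 0.0957, between 0.0273 and 1.0 under the alternatives). For *Klf4* it was -0.12 (adjusted p = 0.296). The median over the 10 factors was -0.014.

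Whether factors rise and fall together between clones was asked for all 45 pairs over the 9 total RPF libraries. The clones fall into sets by replicate number, none of which holds 6 clones, so no correlation over all clones is given for a pair. By exact permutation of the 9 values (362880 orders, two-sided, Pearson), 11 pairs had an unadjusted p under 0.05 and 1 pair passed Benjamini-Hochberg adjustment over the 45, *Klf4* with *Tbx3* (adjusted p = 0.0277). Free permutation treats the clones as exchangeable, which clones in sets by replicate number are not. These p-values therefore cannot separate a shared division by replicate number from co-variation between clones. Within replicate numbers only 216 orders exist, so no p can fall below 0.00463 and a lone pair cannot pass adjustment over the 45. After values were centred on the replicate number, *Klf4* and *Tbx3* had a Pearson r of 0.90 (exact permutation p = 0.106).

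*Tbx3* was the factor that varied most, and the transcripts most like it over the 9 total RPF libraries are given as a description. By Pearson correlation of log2(normalized CPM + 0.05) among 10084 transcripts, the 5 highest included *8030474K03Rik* (0.99), *Kdelr3* (0.98), *Kif18b* (0.98) and *Slk* (0.98). The most opposed were *Pdzd4*, *Pnrc2* and *Nf2* (-0.995, -0.992 and -0.992). These libraries share the division by replicate number, which such coefficients carry.

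The other gene lists were read in the same comparisons. Between the total RPFs of the lines, 0 of 39 further pluripotency genes, 0 of 10 of LIF and *Stat3*, 0 of 9 of Wnt and Gsk3 and 0 of 9 of the formative and primed states passed by edgeR, in a background of 0%, and DESeq2 and voom with limma gave 0 of all transcripts. At an unadjusted p under 0.05, 0, 2 and 4 of the 39 did so for *Rps27-FLAG* against WT, *Rps27l-FLAG* against WT and the tagged lines against each other, beside 294, 574 and 580 of the 10085 transcripts. With the replicate number as a block, where 1.43% and 1.36% of all transcripts passed against WT and against *Rps27-FLAG*, *Rps27l-FLAG* had less *Mycn* (-0.53), *Gdf3* (-0.31), *Lin28a* (-0.31), *Nr0b1* (-0.27) and *Fgf15* (-0.92) than WT, and against *Rps27-FLAG* more *Myc* (0.46), *Klf5* (0.30) and *Ncoa3* (0.24) and less *Mycn* (-0.46) and *Zscan10* (-0.28). *Dab2* was higher in *Rps27l-FLAG* in both (1.16 and 1.40). *Dab2* and *Fgf15* were low, with means of 11.2 and 12.8 normalized CPM over the 9 clones (3.95 to 28.2 and 5.99 to 24.1). These blocked calls outside the 10 factors were not repeated with a library left out. In the IP, the genes that passed without a block all fell, *Apc* (-0.71), the telomere and replication timing factor *Rif1* (-0.53) and *Nacc1* (-0.42) in *Rps27-FLAG*, and *Apc* (-0.61), *Rif1* (-0.38) and *Trim71* (-0.31) in *Rps27l-FLAG*. Of all transcripts, 5.34% and 2.27% were lower in the IP of these lines. The CDS of *Apc*, *Rif1*, *Trim71* and *Nacc1* measured 8526, 7278, 2565 and 1542 nucleotides. Transcripts of 4000 nucleotides or more had a median log2 fold change of -0.34 and -0.29 in the 2 lines. The part of CDS length in these falls was not tested. *Apc* is a scaffold of the complex that degrades beta-catenin, *Nacc1* a partner of *Nanog* and *Trim71* an RNA-binding ubiquitin ligase. With the clone block, the *Rps27-FLAG* IP held more of 20 and less of 7 of the 39 pluripotency genes, and the *Rps27l-FLAG* IP more of 14 and less of 9. Over all transcripts this fit gave 18.3% higher and 22.9% lower in the first and 12% and 19% in the second.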

How the data were processed

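RPFs of 15 mESC libraries were analysed. The authors trimmed reads with cutadapt 2.4, removed PCR duplicates with UMI-tools 1.0.1, discarded rRNA, tRNA and snRNA reads, aligned the rest with Bowtie2 2.3.4.3 to GRCm38 transcripts, and counted ribosomal A sites from unique alignments, leaving the first 15 and last 5 codons of a CDS aside. The deposited values are raw counts per transcript for 21727 transcripts. Gene names, positions and CDS lengths were taken from GENCODE M21, which lists 21713 of them, while the authors used another GENCODE release.

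Here, 13 transcripts of the mitochondrial genome were removed and the 10085 with a CPM above 2 in 14 or more libraries kept. TMM factors were computed separately for each fraction, and normalized CPM use library sizes scaled by them. Counts were tested in R 4.3.3 with edgeR 4.0.16 (quasi-likelihood F-test, Benjamini-Hochberg adjustment over all kept transcripts, threshold 0.05). Total RPFs were fitted by line, IP against total RPFs by fraction, and the difference of IP effects with the clone as a block, an absolute log2 limit of 0.25 and without *Tmod3*. Alternatives were voom with limma 3.58.1, DESeq2 1.42.0, its size factors, TMM over all libraries, no low-count filter, blocks, the CDS length trend removed by loess (span 0.5) and each library left out. The tests were tried on simulated data. The same-clone IP and total library pair by design. Their deviations from the condition mean correlated with r from 0.468 to 0.790 in 6 clones, and those of total RPF libraries with the same number from different lines with r from -0.164 to 0.713 (median 0.443). The values below 0 were those of replicate 2 of *Rps27l-FLAG* with replicate 2 of *Rps27-FLAG* (-0.164) and of WT (-0.0404). Libraries of a condition differed by chi-squared per degree of freedom of 1.78 to 10.3, so none is a copy. Clones are separate single-cell derivatives of 1 parental line.

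All 10 factors are named. Of each other list, the rule names genes that passed in 1 of the 6 comparisons or otherwise up to 4 of the most abundant. Genes named for the replicate number or for a blocked fit were chosen after their values were seen. A gene among these is not reported here. The factors and lists were chosen with earlier results of these data known.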

Additional observations from a re-analysis of the deposited data

How the results depend on the processing

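Over the alternatives that leave out no library, 370 values of single factors kept their direction and their side of the threshold, 32 passed only under the alternative and 18 turned direction. For the *Rps27l-FLAG* IP these were *Klf4* (0.016 by DESeq2, 0.0053 with TMM over all 15 libraries, 0.034 with block and length), *Tfcp2l1* (0.026, 0.015 and 0.037), *Tbx3* (0.031, 0.021 and 0.10, 2.8e-05 with DESeq2 size factors, 0.00096 without a filter) and *Sall4* (0.10 with block and length). For the IP effect these were *Esrrb* (0.0054 by DESeq2, 0.00027 with its size factors, 0.0080 with TMM over all 15 libraries, 0.0095 with length removed) and *Nanog* (-0.00015 without a filter, -0.0017 with no replicate block). Among counts, 76 stayed within 1.5 times of the main one and 20 moved further.

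Blocking on the replicate number moved the transcripts called between lines from 0 to 1, 144 and 137 and the factors to 1 between the tagged lines. Blocking on the clone moved the IP counts from 572 to 4154 transcripts and 8 factors in *Rps27-FLAG* and from 313 to 3128 and 7 in *Rps27l-FLAG*. Block and length trend together gave 3162 and 9, and 2293 and 8. DESeq2 gave 2 factors in each line. For the IP effect, DESeq2 called 11 transcripts, no block 0, length removed 28 and no limit on the fold change 150, against 57. The replicate number, tested after seeing the data, gave 2112 transcripts without the *Rps27l-FLAG* libraries, against 1239. Centring on it left 0 of 45 pairs, in a test that a lone pair could not pass. The block changed no other call of a factor between total RPFs. The causes of these shifts were not tested.

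With 1 library left out at a time, the ranges that crossed 0 or moved were as follows. Between *Rps27-FLAG* and WT they were -0.093 to 0.014 for *Sox2*, -0.035 to 0.035 for *Nanog*, -0.13 to 0.063 for *Klf2*, -0.37 to 0.44 for *Klf4*, -0.042 to 0.025 for *Esrrb*, -0.17 to 0.016 for *Tfcp2l1* and -0.48 to 0.41 for *Tbx3*. Between *Rps27l-FLAG* and WT they were 0 to 1 transcripts, -0.0060 to 0.050 for *Sox2*, -0.15 to 0.044 for *Klf2*, -0.0049 to 0.067 for *Zfp42* and -0.20 to 0.034 for *Tfcp2l1*. Between the tagged lines they were 0 to 1 transcripts, -0.065 to 0.0087 for *Pou5f1*, -0.11 to 0.057 for *Klf2*, -0.0044 to 0.57 for *Klf4* and -0.13 to 0.10 for *Tfcp2l1*. In the *Rps27-FLAG* IP they were 0 to 1817 transcripts, 0 to 5 factors (both highest without replicate 1, where *Sox2*, *Nanog*, *Klf2*, *Esrrb* and *Zfp42* passed) and -0.0027 to 0.046 for *Tbx3*. With the clone block they were 5 to 7 factors, against 32.8% to 33.6% of all transcripts. In the *Rps27l-FLAG* IP they were 0 to 319 transcripts, 0 to 1 factors, -0.045 to 0.010 for *Tfcp2l1* and -0.058 to 0.028 for *Tbx3*. For the IP effect they were -0.013 to 0.019 for *Nanog*, -0.073 to 0.00069 for *Klf2*, -0.026 to 0.013 for *Esrrb* and -0.085 to 0.0057 for *Tbx3*. The replicate number gave 270 transcripts (without replicate 1 of WT) to 2169 (without replicate 2 of *Rps27l-FLAG*) and 2 to 4 factors. The leave-out fits with a block were added after seeing the data. With 3 clones a line, differences of the size seen for *Tbx3* without a block were not resolved.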
